A study of Mus musculus with 8 samples.

Results

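The unfolded protein response and amino acid stress genes were 40 listed mouse genes: endoplasmic reticulum (ER) chaperones and degradation factors, the stress sensors of the ER, and targets of the transcription factor ATF4. They were taken as the probes whose gene name in the array files is one of the 40, which gave 65 of 41174 probes for 38 genes. Of those 38, 36 were measured, among 14881 genes and transcripts in all: 16 of the chaperone arm, 3 of the sensors and 17 of the ATF4 arm. Eif2ak3 (the sensor kinase PERK) and Psat1 (a serine synthesis enzyme) were above background on 0 of 8 arrays. Sel1l and Manf carry older names in the files, were found through their accessions only and are described apart.

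Total RNA of primary vascular smooth muscle cells from aortas of C57BL/6 mice was hybridised to 8 one-colour arrays. The AngII+CsA group was 4 cultures with 1 µM angiotensin II and 200 ng/ml cyclosporin A, and the AngII group was 4 cultures with 1 µM angiotensin II alone. Every culture was grown in serum and received angiotensin II, the pressor hormone of the renin-angiotensin system, so no culture without the hormone serves as a baseline here. Cyclosporin A binds cyclophilins and so inhibits the phosphatase calcineurin, and the series set out to find the angiotensin-regulated genes that it changes. The cultures are described by the submitters as independent, and the time of treatment is not given in the sources used here. The cultures are numbered 1 to 4 in each group, and the 2 arrays of a number were run on 1 slide and scanned together, so that culture, slide and scan cannot be told apart.

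When unfolded proteins build up in the ER, the sensors IRE1 (Ern1), ATF6 and PERK switch on. IRE1 splices the Xbp1 transcript, and spliced XBP1 and cleaved ATF6 raise chaperones and degradation factors through ER stress elements in their promoters. PERK, like the kinase that senses amino acid shortage, phosphorylates the initiation factor eIF2, which lets ATF4 be translated and raise genes of amino acid supply, tRNA charging and the regulator CHOP (Ddit3). Splicing, cleavage and translation are not read by these probes, which measure transcript level only.

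The elements through which the 2 arms are known to be driven can be read in their promoters, and are printed because they set the arms apart by sequence and not by level. Sequences are RefSeq windows in build GRCm38.p6, from 250 bases before to 50 bases after the annotated start, found for 37 of the 40 genes (not for Hyou1, Manf and Atf6). The ER stress element, ERSE, was searched as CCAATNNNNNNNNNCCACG on both strands, ERSE-II as ATTGGNCCACG and the ATF4 element, CARE, as TGATGNAA. Each line shows the gene's strand, with the fixed letters of the element in capitals and 5 bases on either side. The lines run from ERSE over ERSE-II to CARE, and those without an element's name show ERSE.
Hspa5, chr2:34772020-34772048, plus strand: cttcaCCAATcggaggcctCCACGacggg
Canx, chr11:50325795-50325823, minus strand: attgaCCAATcaccacgctCCACGaagaa
Pdia6, chr12:17266486-17266514, plus strand: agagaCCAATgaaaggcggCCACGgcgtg
Syvn1, chr19:6046527-6046555, plus strand: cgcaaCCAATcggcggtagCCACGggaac
Dnajb11, ERSE-II, chr16:22857847-22857867, plus strand: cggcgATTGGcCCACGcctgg
Herpud1, ERSE-II, chr8:94386372-94386392, plus strand: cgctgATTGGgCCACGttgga
Asns, CARE, chr6:7693220-7693237, minus strand: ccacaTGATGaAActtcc
Chac1, CARE reversed, chr2:119351044-119351061, plus strand: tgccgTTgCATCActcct
Gars, CARE reversed, chr6:55037966-55037983, plus strand: cgctaTTtCATCAtgcac
Fgf21, CARE reversed, chr7:45615617-45615634, minus strand: ccccaTTgCATCAtccgt

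ERSE was present in 8 of 16 chaperone-arm genes with a window (Hspa5, Hsp90b1, Calr, Canx, Pdia6, Dnajc3, Creld2 and Syvn1), in 0 of 18 ATF4-arm genes and in 0.137% of all 27025 genes with a window. ERSE-II was present in Dnajb11 and Herpud1, and in 0.0444% of all genes. CARE was present in 8 of 18 ATF4-arm genes (Trib3, Asns, Chac1, Aars, Gars, Fgf21, Vldlr and Nupr1), in the chaperone-arm gene Herpud1 and in 4.51% of all genes. ERSE and ERSE-II share half-site letters but no site counted here fell under both. A match is a stretch of letters and not a measured binding site. Hspa5 had its ERSE 65 bases before the annotated start and Asns its CARE 23 bases before it.

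**Figure D1:**
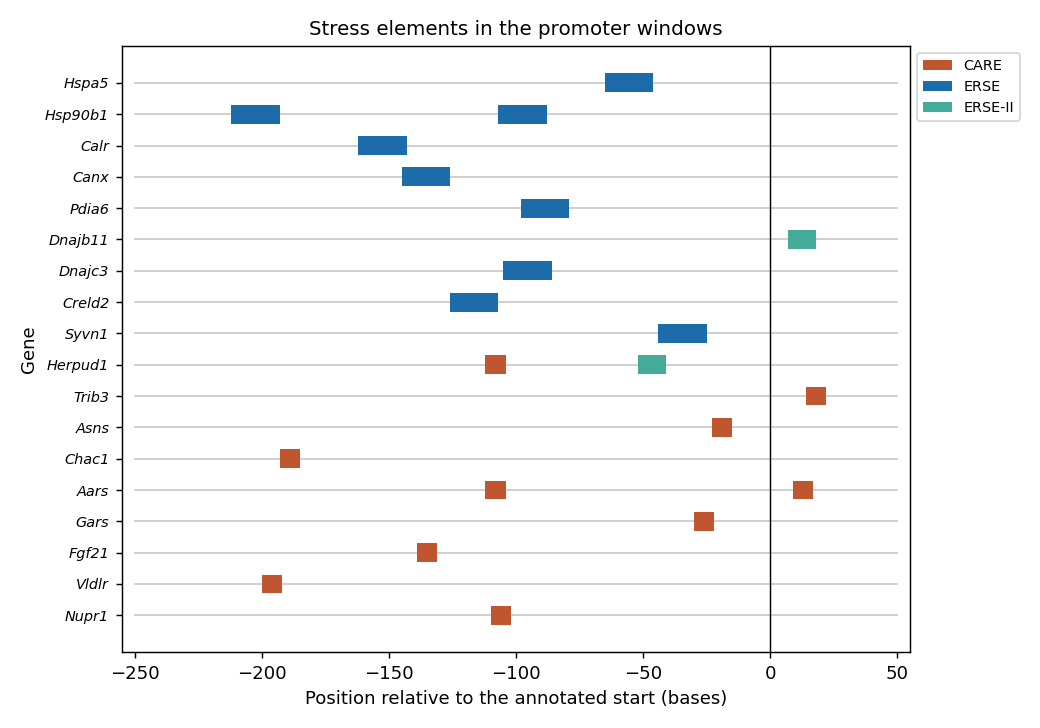
Positions of ERSE, ERSE-II and CARE matches (coloured boxes, to scale) in the promoter windows of the 18 listed genes that hold one; the horizontal axis is the distance from the annotated start in bases. ERSE and ERSE-II boxes lie in chaperone-arm genes, and CARE boxes in ATF4-arm genes and Herpud1.

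Values below, called log2 levels, are the processed signal divided by its 75th percentile on that array, on a log2 scale, and a difference is AngII+CsA minus AngII, averaged over the 4 same-numbered pairs. Levels of different genes come from different probes and are not set against each other. Between 42.8% and 51.7% of spots were above background on each array. Of the smooth muscle markers 7 of 8 were measured, with Tagln at 7.22 or more on every array. Des among them was above background on only 3 AngII+CsA and 2 AngII arrays. Myocd was above background on too few arrays to be tested. The endothelial markers Pecam1, Cdh5, Kdr and Tie1 and the leukocyte marker Ptprc did not pass the background filter either, while the endothelial markers Tek and Vwf were above background on 8 and 7 arrays. Of the macrophage and T cell lists, Csf1r, Cd68, Cd14, Cd3e, Cd4 and Cd2 were above background on all 8. Adgre1 and Lyz2 of the macrophage list and Cd3d, Cd3g and Cd8a of the T cell list did not pass the filter. Of the 6 fibroblast markers, Dcn, Lum and Pdgfra were above background on every array, and Dpt, Cd34 and Ly6a did not pass the filter. In RNA of a culture, fewer cells of a type and less RNA per cell cannot be told apart.

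Cyclosporin A changed no stress gene past the threshold. With limma and the replicate number as a block, 0 of 36 members had an adjusted p under 0.05, beside 4 of all 14881 genes (0.0269%). At an unadjusted p under 0.05 there were 3 members: Fgf21 and Asns at lower levels and Dnajb9 at a higher level with cyclosporin A. Of all 14881 genes, 783 were under it, 556 lower and 227 higher, so the 3 are no result about the members. Fits without the block and with the block as a random effect also called 0 members, with 1 and 2 below 0.05 unadjusted. Without the block, 43 of all genes were below 0.05 unadjusted, and that count was not taken for the random effect. Of the 36 differences, 34 lay within 0.3 log2 of zero, as did 13250 of all 14881 genes. The 95% interval lay within 0.7 log2 on either side for 34 members, the exceptions being Fgf21 and Chac1. Both limits serve description only, and the intervals were not counted over all genes. The arrays of the 2 groups overlapped in every member, while 0.37% of all genes had groups that did not overlap. The p-values of the fit with the block measure the spread of the differences over these 4 pairs, and not the spread between the cultures of a group.

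**Figure D2:**
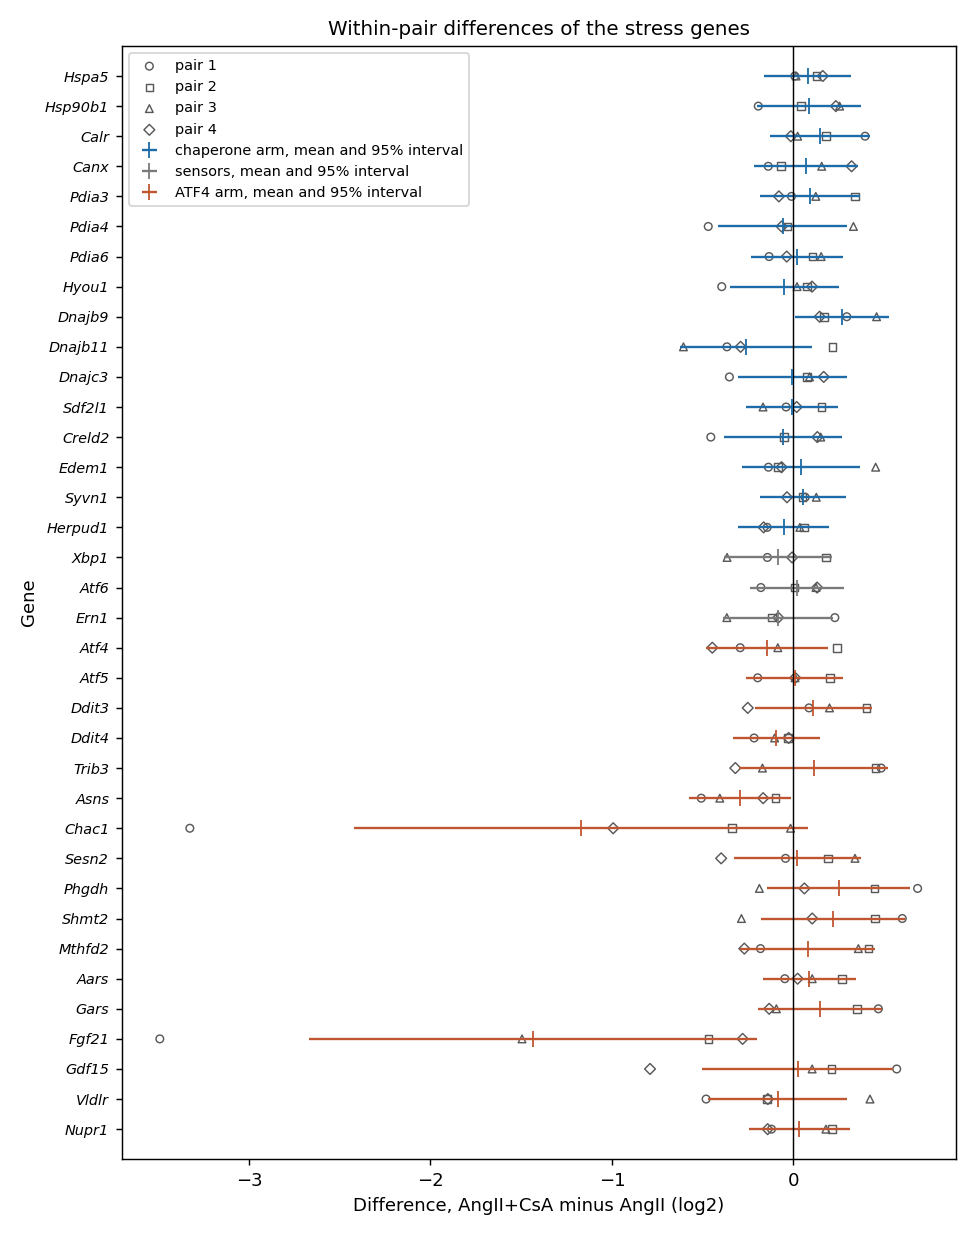
Differences between AngII+CsA and AngII (log2, horizontal axis) for the 36 measured stress genes. Open symbols are the 4 same-numbered pairs, and coloured ticks with bars are the mean and its 95% interval from limma. Apart from Fgf21 and Chac1, whose pair 1 lies beyond -3, the means lie between -0.29 and 0.27.

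Hspa5 encodes BiP, the most abundant chaperone of the ER, and is the usual gauge of chaperone induction; its probe lies at chr2:34783421-34783480 in build mm7, the build of all probe positions given here. Its log2 levels in replicates 1 to 4 were 9.93, 9.76, 10.40 and 10.05 in AngII+CsA cultures, and 9.92, 9.63, 10.38 and 9.89 in AngII cultures. The pairs differed by at most 0.16, less than the SD of the cultures of either group, and replicate 3 was the highest in both groups. Hspa5 averaged 10.03 ± 0.27 in AngII+CsA and 9.95 ± 0.31 in AngII (SD, n = 4 each). The difference was 0.08 ± 0.10 (SE), with a limma interval of -0.16 to 0.32 and an adjusted p of 0.939. AngII+CsA was the higher in 4 of 4 pairs, by 0.01, 0.13, 0.02 and 0.16.

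Dnajb9 encodes ERdj4, a DnaJ co-chaperone of BiP that hands misfolded proteins to degradation and is an XBP1 target. Its probe (chr12:42082906-42082965) gave log2 levels of 1.78, 0.96, 0.59 and -0.04 in AngII+CsA cultures, and 1.49, 0.79, 0.13 and -0.18 in AngII cultures. Both groups had the same order over the replicate numbers, with replicate 1 high and replicate 4 low. The difference was 0.27 ± 0.11 (SE), higher with cyclosporin A in 4 of 4 pairs (limma adjusted p = 0.894). Dnajb9 and Hspa5 were the 2 members of 36 that were higher in all pairs (5.56%), near the 4.99% of all genes. A dimmer Dnajb9 probe had a difference of 0.53 but its replicate 1 value lay near the gene's mean, at a deviation of -0.08.

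Dnajb11 encodes ERdj3, another BiP co-chaperone, and was among the dimmest members, above background on 3 of 4 arrays in each group. Its probe (chr16:22533390-22533449) gave log2 levels of -0.89, -2.37, -3.52 and -2.13 in AngII+CsA cultures, and -0.52, -2.59, -2.92 and -1.84 in AngII cultures. Replicate 1 was the highest and replicate 3 the lowest in both groups. The difference was -0.26 ± 0.15 (SE), with an adjusted p of 0.897 by limma. Canx encodes calnexin, the membrane-bound lectin chaperone of the calnexin cycle. Its probe (chr11:50251302-50251361) gave log2 levels of 8.26, 7.47, 7.95 and 7.27 in AngII+CsA cultures, and 8.40, 7.54, 7.79 and 6.95 in AngII cultures. Replicate 1 was again high and replicate 4 low in both groups, and the difference of 0.07 ± 0.12 (SE) had an adjusted p of 0.956.

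The other 12 chaperone-arm members had differences between -0.06 and 0.15, standard errors of 0.10 to 0.15 and limma adjusted p-values of 0.917 or more. They were the ER form of HSP90 (Hsp90b1), the lectin chaperone calreticulin (Calr), the disulfide isomerases Pdia3, Pdia4 and Pdia6, and the BiP partners Hyou1, Dnajc3 and Sdf2l1. The rest were the folding factor Creld2 and the degradation factors Edem1, Syvn1 (the ubiquitin ligase HRD1) and Herpud1. Calr had the largest of these differences, at 0.15 with an interval of -0.13 to 0.42. Over the 16 chaperone-arm members the median difference was 0.03, beside -0.02 over all genes, and 9 were positive, beside 6562 of all 14881 genes. The medians within pairs 1 to 4 were -0.14, 0.07, 0.13 and 0.003, so the pairs did not share a direction. Manf (an ER-resident secreted factor) and Sel1l (the partner of HRD1), both found by accession, had differences of -0.03 and 0.06.

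Among the sensors, Xbp1 (chr11:5476970-5477029) had log2 levels of 4.88, 4.43, 5.14 and 4.59 in AngII+CsA cultures, and 5.02, 4.25, 5.50 and 4.60 in AngII cultures. The difference was -0.08 ± 0.12 (SE, limma adjusted p = 0.950), and replicate 3 was the highest in both groups. Atf6 and Ern1 differed by 0.02 ± 0.11 and -0.08 ± 0.13 (SE). These are totals of each transcript, and the spliced and unspliced forms of Xbp1 are not separated.

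In the ATF4 arm, Atf4 itself (chr15:80341130-80341189) had log2 levels of 5.71, 5.45, 5.50 and 4.98 in AngII+CsA cultures, and 6.00, 5.21, 5.58 and 5.43 in AngII cultures. The ranges of the 2 groups overlapped, with replicate 1 the highest in both. The difference was -0.15 ± 0.14 (SE, limma adjusted p = 0.920), lower in 3 of 4 pairs. Ddit3 encodes CHOP, the regulator of death in prolonged stress, and its probe spans chr10:126796858-126797161. Its log2 levels were 5.18, 4.75, 5.21 and 4.27 in AngII+CsA cultures, and 5.09, 4.34, 5.01 and 4.52 in AngII cultures. Replicates 1 and 3 were high in both groups, and the difference of 0.11 ± 0.13 (SE) had an adjusted p of 0.939.

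The most negative fitted differences were those of Fgf21 and Chac1, both targets of ATF4, and in both the pair of replicate 1 differed most. Chac1 encodes an enzyme that breaks down glutathione. Its probe (chr2:119095103-119095162) gave log2 levels of 0.12, 3.41, 2.90 and 3.17 in AngII+CsA cultures, and 3.45, 3.75, 2.91 and 4.16 in AngII cultures. A single AngII+CsA culture, number 1, was low, and the other three lay within the range of the AngII cultures or just below it. That spot carried no outlier or saturation mark and was above background. Chac1 averaged 2.40 ± 1.53 in AngII+CsA and 3.57 ± 0.53 in AngII (SD, n = 4 each), a difference of -1.17 ± 0.52 (SE, limma adjusted p = 0.894). Without replicate 1 the difference was -0.45, with an unadjusted p of 0.0845 and an adjusted p of 0.849.

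Fgf21 encodes a secreted metabolic hormone that ATF4 raises in liver and muscle. Its probe (chr7:41790404-41791018) was above background on 1 of 4 AngII+CsA arrays and 3 of 4 AngII arrays. It gave log2 levels of -4.80, -3.96, -4.62 and -3.39 in AngII+CsA cultures, and -1.30, -3.49, -3.13 and -3.11 in AngII cultures. The lowest signals above background on these arrays lay between -4.03 and -3.03, so all but the AngII culture of replicate 1 were near or below that limit. Fgf21 passed the filter mainly through the AngII arrays, so its difference rests on AngII+CsA values that were mostly not above background and is not exact. The fitted difference was -1.43 ± 0.51 (SE), and -0.40 under normexp background correction. It was lower in 4 of 4 pairs, with an unadjusted p of 0.0291 and a limma adjusted p of 0.894. Without replicate 1 it was -0.75, at an unadjusted p of 0.0374 and an adjusted p of 0.849.

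Asns encodes asparagine synthetase, the amino acid enzyme that is the classic reporter of ATF4 activity, and was dim, above background on 3 of 4 arrays in each group. Its probe (chr6:7628080-7628139) gave log2 levels of -0.81, -2.41, -3.69 and -2.37 in AngII+CsA cultures, and -0.31, -2.31, -3.28 and -2.20 in AngII cultures. Replicate 1 was high and replicate 3 low in both groups, by far more than the pairs differed. The difference was -0.29 ± 0.12 (SE), lower in 4 of 4 pairs, with an unadjusted p of 0.0420 and a limma adjusted p of 0.894. With Chac1, Fgf21 and Ddit4 (the mTORC1 inhibitor REDD1, at -0.09), Asns was 1 of the 4 members of 36 lower in all pairs (11.1%), near the 9.74% of all genes. These were 4 of the 17 ATF4-arm members (23.5%), a share that was not tested, and Fgf21 and Asns among them were at or near background.

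Phgdh, the first enzyme of serine synthesis, gave log2 levels of 2.44, 2.93, 4.37 and 4.20 in AngII+CsA cultures, and 1.75, 2.49, 4.55 and 4.14 in AngII cultures (chr3:98185627-98186335). Shmt2, the mitochondrial enzyme that passes a carbon from serine to folate, gave log2 levels of 2.26, 2.96, 3.30 and 3.59 in AngII+CsA cultures, and 1.66, 2.51, 3.59 and 3.48 in AngII cultures (chr10:127019144-127019203). Gars, the glycyl-tRNA synthetase, gave log2 levels of 3.18, 3.63, 4.06 and 3.77 in AngII+CsA cultures, and 2.71, 3.28, 4.16 and 3.90 in AngII cultures (chr6:55032852-55036763). In all 3 genes replicate 1 was the lowest in both groups, AngII+CsA was the higher in pairs 1 and 2 and the lower in pair 3. Their differences were 0.25 ± 0.16, 0.22 ± 0.17 and 0.15 ± 0.14 (SE), with limma adjusted p-values of 0.902, 0.915 and 0.920.

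**Figure D3:**
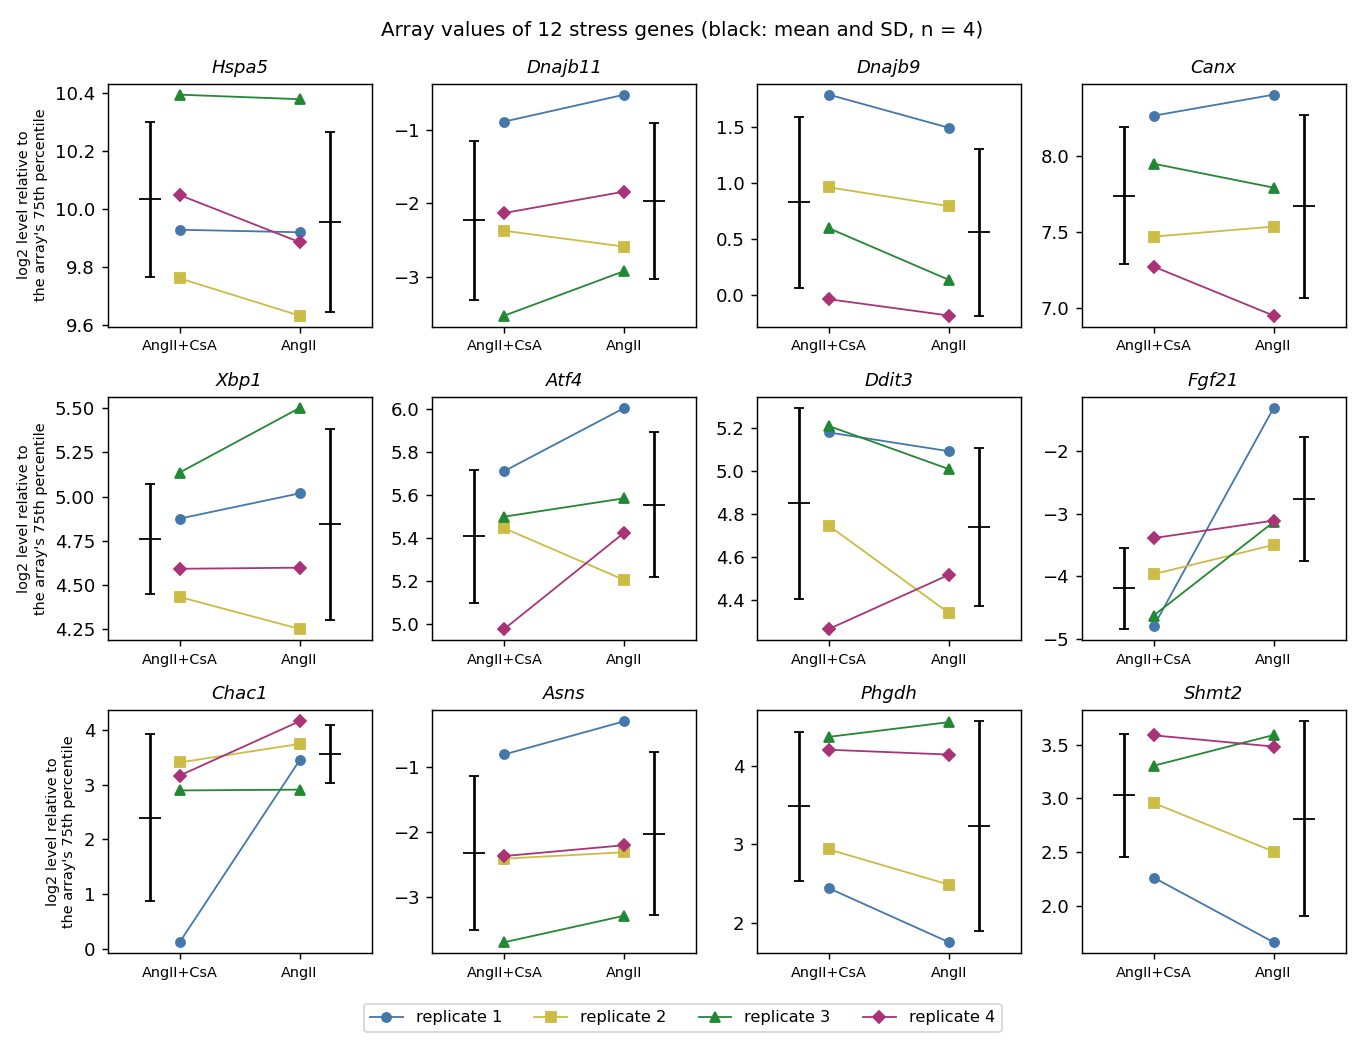
Log2 levels of 12 stress genes on each array (vertical axis, relative to the array's 75th percentile, a separate scale per gene), AngII+CsA on the left and AngII on the right of each panel. Lines join arrays of the same replicate number and black bars are the mean and SD of 4 cultures. Lines run nearly level in most panels while the replicate numbers stand apart; Chac1 and Fgf21 each have 1 steep line, that of replicate 1.

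The remaining 9 ATF4-arm members had, by their brightest probes, differences between -0.09 and 0.11 and limma adjusted p-values of 0.933 or more. They were the transcription factor Atf5, the stress regulators Ddit4, Trib3, Sesn2 and Nupr1, the one-carbon enzyme Mthfd2, the alanyl-tRNA synthetase Aars, the secreted factor Gdf15 and the lipoprotein receptor Vldlr. Gdf15 had the widest interval of these, from -0.50 to 0.55. Over the 17 ATF4-arm members the median difference was 0.02, with 11 positive, beside 6562 of all 14881 genes. The medians of the arm within pairs 1 to 4 were -0.12, 0.21, -0.01 and -0.17. The median of the arm was 0.14 under normexp background correction and -0.03 and -0.01 without replicates 2 and 3. The median of the ATF4 arm minus that of the chaperone arm was -0.01, and within the pairs it was 0.02, 0.14, -0.14 and -0.17. The arms thus differed by less than the pairs differed from each other (SD 0.14).

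Other genes of the pathway gave 0 calls as well. Of 22 measured genes of ER folding, quality control and stress signalling, 9 had positive differences, beside 6562 of all 14881 genes, and their median was -0.02. The 2 with the smallest p were Uggt1, the folding sensor of glycoproteins, at 0.19, and Derl3, a degradation channel component, at -0.16 (limma adjusted p = 0.903 and 0.915). Of 15 measured genes of the integrated stress response and amino acid supply, 11 were positive with a median of 0.10. There Cebpb, a transcription factor that pairs with ATF4, differed by -0.24 and Slc7a5, the large neutral amino acid transporter, by 0.24 (limma adjusted p = 0.897 each).

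The aminoacyl-tRNA synthetases other than Aars and Gars load amino acids onto tRNA, and many are ATF4 targets. Of these, 16 of 17 measured genes had positive differences, beside 6562 of all 14881 genes. Among these synthetases 0 passed the test, and the count of signs was not tested. Their median difference was 0.18, beside -0.02 over all genes, and the medians within pairs 1 to 4 were 0.23, 0.24, 0.001 and 0.03. The median came from pairs 1 and 2, the pairs in which Phgdh, Shmt2 and Gars were also the higher in AngII+CsA. Rars and Iars, the arginyl and isoleucyl enzymes, had the smallest p, at differences of 0.21 and 0.23 (limma adjusted p = 0.894 each). The one negative member was Hars, the histidyl enzyme, at -0.15, named after its value was seen.

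Replicate number accounted for more of the spread of the stress genes than the treatment did. In the same limma fit, 22 of 36 members (61.1%) passed for the replicate number, beside 68.5% of all genes: 11 of 16 in the chaperone arm, 2 of 3 sensors and 9 of 17 in the ATF4 arm. The replicate number accounted for a median of 89.6% of the sum of squares of a member (11.1% in Fgf21 to 97.9% in Syvn1), against 87.7% over all genes. The treatment accounted for a median of 1.63%. The share and the count lay near those of all genes, so they are no result about the stress genes in particular. The median range between the highest and lowest replicate-number means was 0.79 log2 in members and 0.90 in all genes.

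**Figure D4:**
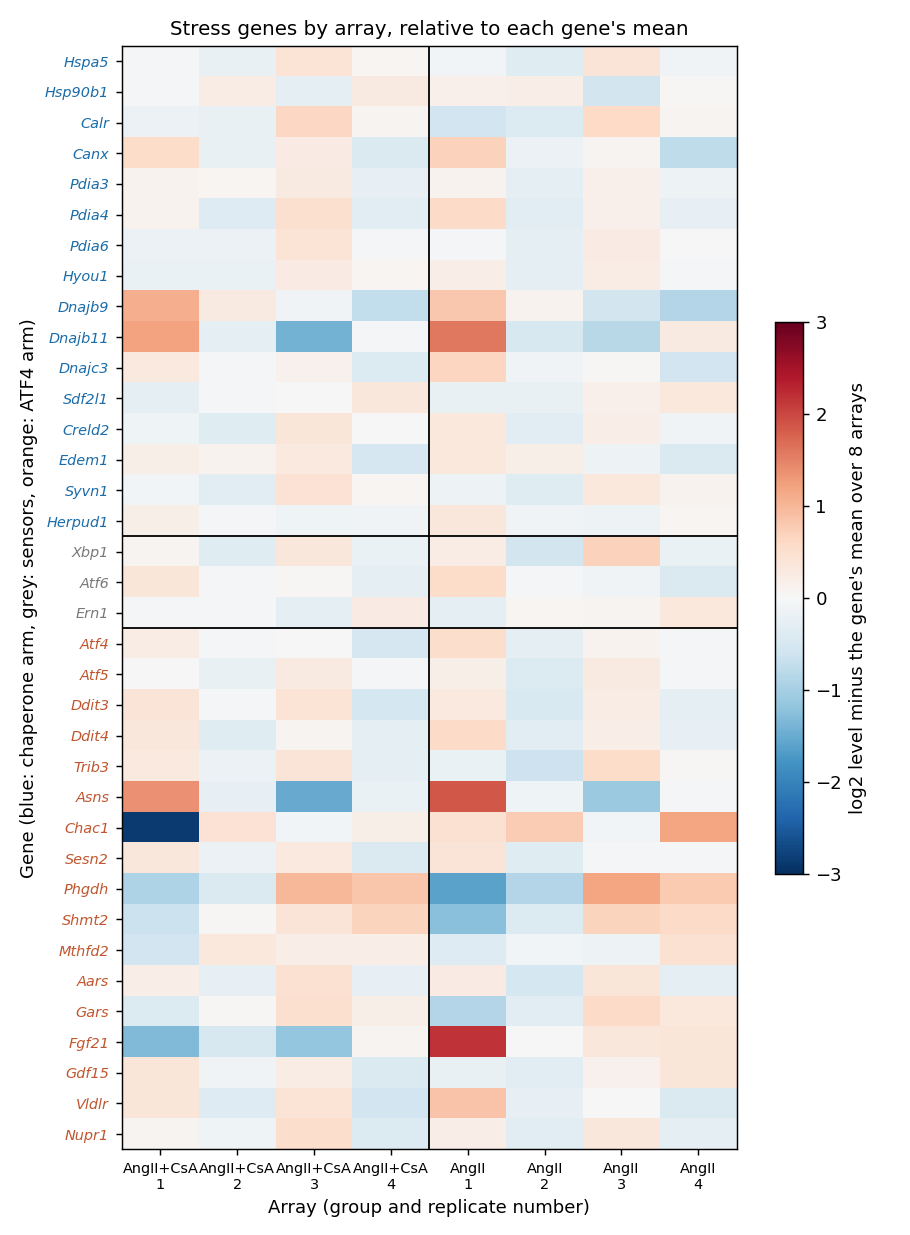
Log2 level of the 36 measured stress genes on the 8 arrays, minus each gene's mean (colour, red above and blue below), with AngII+CsA arrays on the left and AngII arrays on the right. Both sides repeat the same pattern over replicate numbers, and the single darkest cell is Chac1 in AngII+CsA replicate 1.

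Of 36 members, 15 were highest in replicate 1 and 15 in replicate 3 (41.7% each), against 26.8% and 34.3% of all genes. Replicate 2 was the lowest for 13 members (36.1%) and replicate 4 for 10 (27.8%), against 20.3% and 26.5% of all genes. Replicate 1 was the lowest for 8 members (22.2%) and replicate 3 for 5 (13.9%), against 36.5% and 16.7% of all genes. These shares of all genes are not matched for level. Over genes with a mean level of -3 to -1 the median deviation in replicate 1 was -0.19, and at 5 to 12 it was 0.01. Whether the members differ from genes of like level was not tested. The median deviation of the chaperone arm was 0.10, -0.21, 0.18 and -0.03 in replicates 1 to 4, and that of the ATF4 arm 0.13, -0.25, 0.20 and -0.11. The medians over all genes were -0.11, -0.07, 0.08 and 0.06. The medians of the 2 arms thus had the same order over the cultures, with a range of 0.39 in the chaperone arm and 0.45 in the ATF4 arm. These ranges depend on the scaling of the arrays: under quantile scaling they were 0.22 and 0.20, and without replicate 2 they were 0.24 and 0.30.

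**Figure D5:**
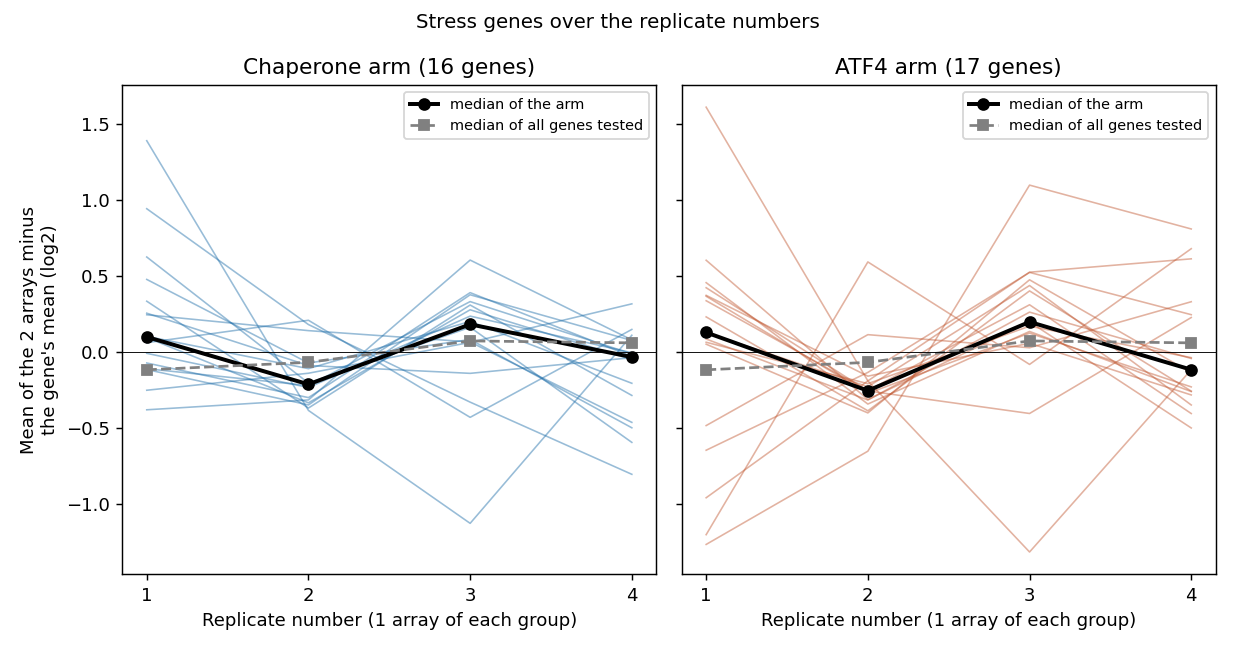
Deviation of each stress gene from its mean (log2, vertical axis; mean of the AngII+CsA and AngII arrays of a number) by replicate number, 16 genes of the chaperone arm and 17 of the ATF4 arm. Thin lines follow single genes and have no meaning as an order; the black line is the median of the arm and the dashed line that of all genes tested. Both medians dip in replicate 2 to -0.21 and -0.25.

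Members with wide ranges ran in opposite directions in replicate 1. Asns and Dnajb11 had the widest and second widest ranges, 2.93 and 2.52, with deviations of 1.61 and 1.39 in replicate 1 and of -1.31 and -1.12 in replicate 3 (limma adjusted p for the replicate number 0.000991 and 0.00216). The low end of both is a background value: in replicate 3 neither gene was above background in either group, so these ranges and their order are not exact. Dnajb9 had the deviations 0.95, 0.18, -0.33 and -0.80. P4hb, a disulfide isomerase outside the 40 genes and named after its values were seen, was dim as well and had deviations of 2.0 in replicate 1 and -1.60 in replicate 3. Among all genes with a mean level between -3 and -1, 5.63% had a deviation above 1 in replicate 1.

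Phgdh, Shmt2 and Gars had their lowest means in replicate 1, with deviations of -1.26, -0.96 and -0.64, and ranges of 2.36, 1.57 and 1.17 (limma adjusted p for the replicate number 0.00216, 0.00632 and 0.0120). Mthfd2, the next one-carbon enzyme, was also lowest in replicate 1, at -0.48, with an adjusted p of 0.0583. Chac1 had a range of 1.88 that rested on its single low array, and its adjusted p for the replicate number was 0.147. Canx, the calnexin gene, had a range of 1.22, highest in replicate 1 and lowest in replicate 4.

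Replicate 1 also stood apart in cell markers. The median deviation of the 7 smooth muscle markers there was -1.38, and that of the 3 fibroblast markers was 1.01. The smooth muscle markers did not all go the same way. Acta2, Tagln, Cnn1, Des and Smtn had deviations of -1.92, -1.38, -1.86, -1.93 and -0.84, while Cald1 and Myh11 had 0.74 and 0.13. The deviation of Des is not exact. Its replicate 1 values, -5.22 in AngII+CsA and -5.36 in AngII, lay below the lowest signals above background on those arrays (-3.42 and -3.32). Acta2, the smooth muscle actin, had log2 levels of 5.51, 7.36, 8.73 and 8.44 in AngII+CsA cultures, and 5.66, 7.01, 8.79 and 8.54 in AngII cultures. The summed level of the smooth muscle list ran from 7.84 to 10.2 in AngII+CsA and from 8.23 to 10.4 in AngII (log2 of the summed signal). That of the fibroblast list ran from 8.42 to 10.2 in AngII+CsA and from 8.23 to 10.2 in AngII. Of the endothelial, macrophage and T cell lists 2, 3 and 3 of 6 markers each were measured, with median deviations of -0.16, -0.61 and -0.34 in replicate 1. Cnn1, the smooth muscle protein calponin, differed by -1.71 between AngII+CsA and AngII in the same direction in 4 of 4 pairs (limma adjusted p = 0.461). The part of these differences between cultures in the stress genes' values was not tested.

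Probes of the same gene did not always give the same account. Of 14 members with several probes above background, 11 had the same sign of difference in all and 7 the same sign of the replicate 1 deviation. Sizes could differ too. The dimmer Aars probe had a difference of 0.36 beside 0.09, and the dimmer Vldlr probe, above background on 7 arrays, -0.74 beside -0.09. That Vldlr value is not exact. In replicate 3 the probe stood at -5.36 in AngII+CsA and -2.60 in AngII, and the lowest signal above background on that AngII+CsA array was -3.18. The 3 Canx probes lay between 0.02 and 0.07. Phgdh shows disagreement between probes that share part of their sequence. Of its 3 probes, 2 were low in replicate 1, at deviations of -1.49 and -1.26 (-1.26 being that of the brightest probe, used above), and the dimmest was high, at 0.44. The last 30 bases of the probe at -1.49 and the first 30 of the probe at 0.44 share 17 bases, in capitals.
Phgdh probe low in replicate 1, array position chr3:98184395-98184425, minus strand: tgtgacctataggGAGAGGGGATCGCAGAA
Phgdh probe high in replicate 1, array position chr3:98184399-98184458, minus strand: GAGAGGGGATCGCAGAAccagggcatctgc
The positions are those of the array files, and the first covers fewer bases than the probe has. It also does not reach the end of the second position where, on the minus strand, the shared bases lie. The positions therefore give no distance between these probes. The probe used above shares no such stretch with these. Members with a single measured probe, Asns, Dnajb11, Chac1, Fgf21 and Shmt2 among them, have no second probe to set beside it.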

How the data were processed

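Gene expression was measured on 8 Agilent arrays of design 014868. Spots were read by Agilent's Feature Extraction software, version 9.5.3.1, per the file headers, and the deposited files hold linear intensity values of every spot: a processed signal, from which that software had taken the background, a mean signal and a local background. A second table deposited by the authors is in log2 units. Its columns rank the probes as the arrays do (Spearman rho of 1.00), have a median of 3.01 each, and its scaling constant stays unknown. It served as 1 of the alternatives.

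For the main analysis the processed signals of an array were divided by their 75th percentile and put on a log2 scale. Control spots and spots marked as outliers were dropped, the number of saturated spots was 0, spots of a probe were averaged, and probes above background on at least 4 of 8 arrays were kept (19529 of 41174). Each gene was represented by its brightest probe. Of all probes, 22951 took their name by accession from RefSeq's gene table for GRCm38.p6, 6659 carried a current symbol and 11564 kept the name in the files. Probe positions were copied from the files and refer to build mm7. An annotation of that build was not used here, so exons and untranslated regions are not given.

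Two-sided tests of the differences used lmFit and eBayes of limma 3.58.1 in R 4.3.3, with the replicate number as a block and Benjamini-Hochberg adjustment over all 14881 genes at a threshold of 0.05. Replicate number was tested with the moderated F of the same fit. Deviations of arrays of the same number correlated at 0.70 to 0.86, and those of other arrays at -0.79 to 0.29, and the arrays were treated as paired by number. The script was tested on simulated data. Values in every array are given for Hspa5, Ddit3, Atf4 and Xbp1, the 6 members with the smallest p and the 8 with the widest range over replicate numbers. In the other lists the 2 genes with the smallest p are named. The members, lists and rules were chosen with earlier results of these data known. Alternatives covered background correction, scaling, the probe filter, outlier spots, the mean of a gene's probes or each probe by itself, the variance model, the block, the authors' table and leaving out each replicate. Arrays give no depth, and their number limits the precision.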

Additional observations from a re-analysis of the deposited data

Results flagged for a closer look

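In 76 groups of 4 arrays (each member in each treatment group, found by name or accession), the highest or lowest array was set against Dixon's critical value, which chance passes in about 1 of 20 groups, and 2 passed. Chac1 stood at 0.12 in AngII+CsA replicate 1, against 2.90 to 3.41 in the other AngII+CsA cultures. Mthfd2, the mitochondrial one-carbon enzyme, stood at 1.09 in AngII+CsA replicate 1, against 1.86 to 1.99 in the other AngII+CsA cultures. In the AngII culture of the same number, Chac1 stood at 3.45 and Mthfd2 at 1.27.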

How the results depend on the processing

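Members called for treatment numbered 0 under each of the 12 alternatives and with each replicate left out, and 0 in the fit with no replicate block. Under normexp background correction 11 members had an unadjusted p under 0.05 (8 higher and 3 lower with cyclosporin A), with a lowest limma adjusted p of 0.157. The share of all genes under that p was not taken with this correction, so the count cannot be read as a result about the members. There the median difference was 0.137 over the members, 0.141 in the ATF4 arm and 0.166 in the chaperone arm; the chaperone median moved by more than its spread over pairs in no other setting run. The range over replicate numbers of the chaperone arm was 0.225 under quantile scaling, 0.238 with the median of commonly detected probes as scale and 0.232 in the authors' table. That of the ATF4 arm was 0.196 under quantile scaling and 0.199 in the authors' table. With each replicate left out in turn, these ranges ran from 0.243 to 0.388 and from 0.295 to 0.503. Leaving out replicates gave median differences of 0.003 to 0.078 in the chaperone arm and -0.033 to 0.109 in the ATF4 arm, and -0.037 to 0.099 for the ATF4 arm minus the chaperone arm. With each replicate left out, members called for replicate number ran from 12 (33.3%, without replicate 4) to 23 (63.9%, without replicate 1), beside 44.1% and 62.4% of all genes. Under quantile scaling they were 15 (41.7%) and with a trended and robust variance 28 (77.8%), beside 54.9% and 71.4% of all genes. With probes above background on all 8 arrays, 26 of 33 members were called (78.8%), beside 76.6% of all genes. The shares of all genes moved too, so these counts are no result about the members, and the cause was not tested. Of the members' single differences under the alternatives, 492 stayed within their spread over pairs and 9 did not, 5 of them under normexp (Pdia6, Syvn1, Herpud1, Ddit4 and Hspa5), and none passed the test. The 492 include settings that cannot move a difference. The fits without the block and with the block as a random effect give the main differences again, and the probe filters mostly keep the same probe. The count is therefore no measure of how stable the differences are. Fgf21 ranged from -1.82 to -0.40, Chac1 from -1.55 to -0.45, Asns from -0.36 to -0.22 and Dnajb9 from 0.18 to 0.40. The settings for the tRNA synthetases were chosen after seeing the data: their median difference was positive in each, at 0.0963 to 0.226. Signal limits Fgf21, Asns and Dnajb11, which were not above background on all 8 arrays, and Eif2ak3 and Psat1.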
